A study of Rattus norvegicus with 2 samples.

Results

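Immediate early transcription factors are the products of genes that cells switch on within minutes of a growth factor, stress or calcium signal, before any new protein is made. The 10 genes described here are Fos, Fosl1, Jun, Junb, Egr1, Nr4a1, Nr4a2, Klf4, Klf6 and Myc. They were found as the gene probes on both arrays whose listed transcript belongs to one of these rat genes in RefSeq, which gave 11 probes with 36 spots per array, of 30367 gene probes in all. All 10 genes were well above background on both arrays, among 9026 named genes for which that held.

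The study measured total RNA of RMT-1 cells, clone E4 of a rat mammary tumour cell line cultured with 10% fetal bovine serum, on 1-colour Agilent expression arrays. One array held RNA of cells transiently transfected with an siRNA against Pla2g4c, and the other RNA of cells transfected with a negative control siRNA. Pla2g4c codes for cytosolic phospholipase A2 gamma, an enzyme that cuts fatty acids off the phospholipids of membranes. The sources used here do not give the time between transfection and harvest. Each group being 1 array of 1 clone, no difference could be checked in replicates or tested across samples.

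Transcription of several immediate early genes is known to run through serum response factor with its ternary complex partners, or through CREB. Both can sit on the promoter beforehand and are activated by kinases. Fos and Jun family proteins bind DNA in pairs as the AP-1 factor, Egr1 and the Kruppel-like factors bind GC-rich sites through zinc fingers, Nr4a1 and Nr4a2 are orphan nuclear receptors, and Myc pairs with Max on E-boxes. Their mRNAs are short-lived in many cell types. In mammary epithelium they take part in the response to growth factors, and in stratified epithelium Klf4 is known from mice as a factor of barrier differentiation.

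Relative to the bulk of genes, the immediate early factors differed in both directions between cells with the Pla2g4c siRNA and those with the control siRNA. Nr4a1 was 2.43-fold higher, while Nr4a2, Klf4 and Fos were 3.17-fold, 2.56-fold and 2.43-fold lower. Fosl1 was 1.73-fold higher, Junb 1.91-fold lower and Egr1 1.54-fold lower. Myc, Klf6 and Jun differed by less than 1.5-fold. Thus 1 of the 10 genes was at least 2-fold higher, against 2.91% of all 9026 named genes, and 3 of the 10 were at least 2-fold lower, against 3.05% of them (4 of 10 in either direction, against 5.96%). At 1.5-fold, 2 of the 10 were higher, against 8.69% of all named genes, and 5 of the 10 were lower, against 10.3%. The median difference of the 10 genes was -0.51, beside -0.01 over all named genes. With spike-in scaling, 2 of the 10 (Nr4a1 and Fosl1) were at least 2-fold higher and 1 (Nr4a2) at least 2-fold lower, and their median was 0.035, beside 0.54 over all named genes. Under normexp background correction 0 of the 10 passed 2-fold upward, and 2 (Nr4a2 and Klf4) passed it downward. The genes were chosen with results of these arrays known, so these counts describe them and show nothing particular to them.

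Each difference is the log2 scaled signal of the Pla2g4c siRNA array minus that of the control array. The ± beside it carries the error that the scanner software gives both signals, and it covers no variation between arrays. Its median over all named genes was 0.20, and it is not the measured spread of repeat spots. Myc had ± 0.20, while the log2 standard deviation of its 10 spots was 0.045 (Pla2g4c siRNA) and 0.057 (control siRNA). The scaled signal is the processed signal in percent of the 75th percentile over the gene spots of its array, which was 1105 with the Pla2g4c siRNA and 852 with the control siRNA. Directions depend on that scaling. Scaled to the added spike-in RNAs, the median over all genes was 0.54 in place of -0.01, and in the authors' deposited normalized values it was 0.12. Of all named genes, 263 were higher and 275 lower by 2-fold or more, against 369 and 190 in the deposited values and 1169 and 68 with spike-in scaling. Less RNA per cell and fewer cells of a kind cannot be told apart in such samples.

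The names used here gave no probe for Pla2g4c, so the knockdown itself was not checked. Of 12 epithelial marker genes 9 were well above background on both arrays. Of these 9 genes, 2 were above 0, against 49.0% of all named genes, and 7 below, with a median of -0.30. Those beyond 2-fold were Krt5 at -1.72 ± 0.20, Krt17 at -1.63 ± 0.20 and Epcam at 1.03 ± 0.20. Krt18 did not reach the flag for a signal well above background on either array. Of 8 fibroblast and mesenchymal markers 3 were measured, Vim at -0.76 ± 0.20, Col1a2 at -0.26 ± 0.28 and Col1a1 at 0.13 ± 0.21. Of 5 endothelial markers 1 was measured, Cdh5 at -0.40 ± 0.23. Of 8 leukocyte markers, Ptprc, Cd3e, Itgam and Adgre1 reached it on neither array, and Cd14, Cd68 and Csf1r were measured at -0.25 ± 0.20, -0.39 ± 0.21 and 0.09 ± 0.41. The part of these shifts in the results on immediate early factors was not tested.

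**Figure D1:**
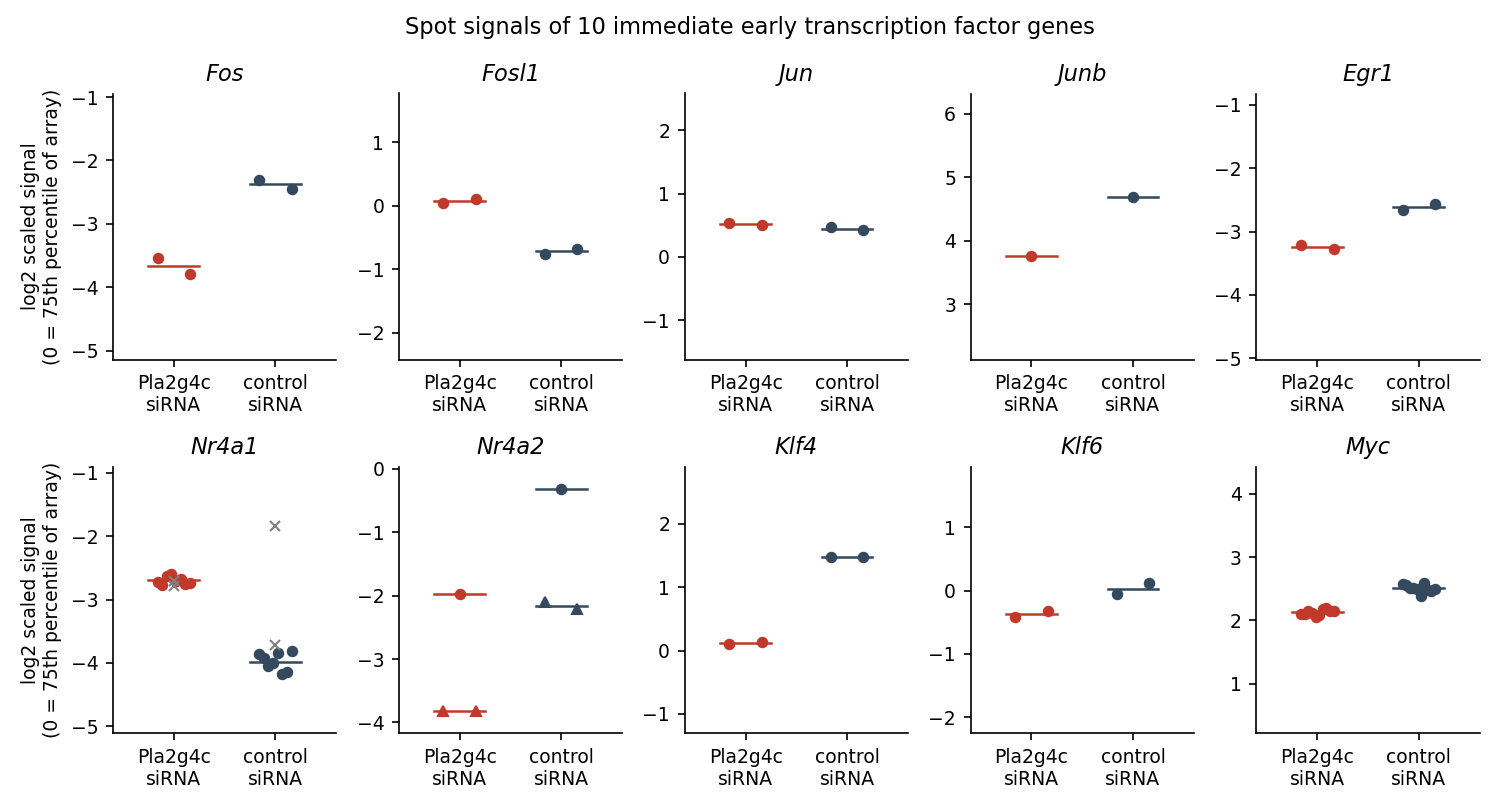
Spot signals of the 10 genes on both arrays, as log2 of the signal over the 75th percentile of the array, so that 0 is that percentile. Each point is a spot on the Pla2g4c siRNA array (left, red) or the control array (right, blue), triangles mark the Nr4a2 probe with 2 spots, lines are means per probe, grey crosses are the 2 spot positions of Nr4a1 that were left out, and every panel spans the same log2 range. Fos, Klf4 and, within each probe, Nr4a2 lie lower, and Nr4a1 and Fosl1 higher on the Pla2g4c siRNA array.

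Among the AP-1 subunits, Fos had the lowest difference. Fos encodes the archetypal immediate early protein, which binds DNA as a dimer with a Jun protein. Its 2 spots had a scaled signal of 8.64% and 7.26% on the Pla2g4c siRNA array, against 20.3% and 18.3% on the control array. Both spots of the Pla2g4c siRNA array were thus below both spots of the control array, and the difference was -1.28 ± 0.21. Of all named genes 1.48% had a lower difference. Fos was just under 2-fold lower with normexp, at -0.99, and was at -0.73 with spike-in scaling, and its dim probe had no value among probes above the median signal.

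Fosl1 encodes Fra-1, a Fos family protein that is often raised in invasive mammary tumour cells and lasts longer than Fos after stimulation. Its 2 spots had a scaled signal of 104% and 107% on the Pla2g4c siRNA array, against 59.2% and 62.6% on the control array. The spots did not overlap between the arrays, and the difference was 0.79 ± 0.20, in the direction opposite to that of Fos. A higher difference was found for 4.86% of named genes.

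Jun, the main partner of Fos proteins, had scaled signals of 144% and 142% on the Pla2g4c siRNA array, against 138% and 135% on the control array. These values were close, and the difference of 0.07 ± 0.20 was within the software error. Junb, a Jun family protein that often acts against Jun in growth control, rested on 1 spot, with a scaled signal of 1351% on the Pla2g4c siRNA array against 2580% on the control array. Its difference of -0.93 ± 0.20 was just under 2-fold, and 3.62% of named genes had a lower one. Many of the brightest genes were lower on the Pla2g4c siRNA array, and with that trend removed by cyclic loess Junb differed by -0.73.

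The promoters of Fosl1 and Junb are shown because these AP-1 genes differed in opposite directions. RefSeq promoter windows of build GRCr8, 250 bases before to 50 after an annotated start, were at hand for 7 of the 10 genes, and none was used for Fos, Jun and Myc. Fosl1 is at chr1:212183635-212183934 on the + strand and Junb at chr19:40080876-40081175 on the + strand. Capitals mark the CRE core TGACG on either strand, the core of the CREB site, and in Junb also the TATA box TATAAA.
Fosl1: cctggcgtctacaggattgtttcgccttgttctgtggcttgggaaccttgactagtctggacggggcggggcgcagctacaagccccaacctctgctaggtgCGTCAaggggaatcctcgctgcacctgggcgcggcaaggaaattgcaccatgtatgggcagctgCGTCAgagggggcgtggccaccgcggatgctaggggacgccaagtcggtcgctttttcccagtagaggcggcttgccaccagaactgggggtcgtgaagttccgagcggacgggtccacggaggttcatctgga
Junb: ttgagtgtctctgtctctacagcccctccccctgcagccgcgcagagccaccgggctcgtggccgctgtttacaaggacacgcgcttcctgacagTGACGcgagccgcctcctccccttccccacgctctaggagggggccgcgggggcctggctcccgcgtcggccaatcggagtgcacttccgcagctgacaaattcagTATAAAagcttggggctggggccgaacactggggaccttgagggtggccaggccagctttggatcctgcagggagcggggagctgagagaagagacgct
The Fosl1 window held the CRE core at 2 places, and 4.96% of the 33469 promoter windows in the table hold it at 2 or more. The Junb window held it at 1 place, and 21.2% of windows hold it at 1 or more, and it held the TATA box once, which 14.2% hold. The AP-1 site TGANTCA, found in 7.33% of all windows, was in none of the 7. The CRE core was also at 2 places in the window of Egr1, a gene with a lower signal, and at no place in those of Klf4 and Klf6. A match describes these letters only.

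Egr1 encodes a zinc finger factor that serum and growth factors induce through serum response factor. Its 2 spots had a scaled signal of 10.8% and 10.3% on the Pla2g4c siRNA array, against 15.8% and 16.8% on the control array. Both were lower than either control spot, with a difference of -0.63 ± 0.21, and 9.07% of named genes had a lower one. Before scaling the processed signals were 119 and 114 on the Pla2g4c siRNA array, against 135 and 143 on the control array. With spike-in scaling the difference was -0.08. The Egr1 promoter window held the CArG box, the site of serum response factor, at 2 places. Of all windows, 0.0209% hold it at 2 or more and 1.64% at 1 or more. The Klf6 window held it at 1 place, and the windows of Fosl1, Junb, Nr4a1, Nr4a2 and Klf4 did not hold it.

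The nuclear receptors Nr4a1 and Nr4a2 differed in opposite directions. Nr4a1, also known as Nur77, is a receptor without a known natural hormone that can act in T cells and tumour cells as a factor of cell death. Its probe was printed 10 times, and at 2 positions 1 array carried an outlier flag, so 8 were used. They had scaled signals of 14.7% at the lowest, 15.2% at the median and 16.6% at the highest on the Pla2g4c siRNA array, against 5.51%, 6.40% and 7.10% on the control array.

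No Nr4a1 spot overlapped between the arrays among those 8. The difference was 1.28 ± 0.22, and 1.78% of named genes had a higher one. At the left-out positions the scaled signals were 15.4% and 14.5% on the Pla2g4c siRNA array, against 7.64% and 28.0% on the control array. The last of these was the only control spot of Nr4a1 above the spots of the Pla2g4c siRNA array. With both positions kept, the difference was 1.03. The signals were low, with a processed signal of 54.5 at the control median, and under normexp background correction, which adds an offset of 50, the difference was 0.57, below 2-fold.

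Nr4a2, also known as Nurr1, is the family member required for midbrain dopamine neurons and is induced by cyclic AMP and prostaglandin signals in other cells. It had 2 probes, which gave the same result. The probe with 2 spots had scaled signals of 7.10% and 7.07% on the Pla2g4c siRNA array, against 23.2% and 21.7% on the control array. The other probe, with 1 spot, had 25.3% on the Pla2g4c siRNA array against 80.3% on the control array. On each probe the spots were lower on the Pla2g4c siRNA array, with a difference of -1.66 for either probe, and the gene's difference was -1.66 ± 0.21. Of all named genes 0.587% had a lower one. Nr4a3, the third receptor of the family, reached the background flag on neither array.

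The promoters of Nr4a1 and Nr4a2 are shown for their opposite differences. Nr4a1 is at chr7:134259888-134260187 on the + strand and Nr4a2 at chr3:62104838-62105137 on the - strand, both in RefSeq build GRCr8, and capitals mark the CRE core TGACG on either strand.
Nr4a1: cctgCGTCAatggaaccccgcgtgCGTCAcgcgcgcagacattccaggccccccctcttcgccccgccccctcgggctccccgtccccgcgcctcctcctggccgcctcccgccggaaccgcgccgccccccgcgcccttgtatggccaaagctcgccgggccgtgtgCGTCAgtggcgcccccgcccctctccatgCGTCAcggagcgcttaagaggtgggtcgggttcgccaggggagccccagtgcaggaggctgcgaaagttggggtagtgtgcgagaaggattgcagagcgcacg
Nr4a2: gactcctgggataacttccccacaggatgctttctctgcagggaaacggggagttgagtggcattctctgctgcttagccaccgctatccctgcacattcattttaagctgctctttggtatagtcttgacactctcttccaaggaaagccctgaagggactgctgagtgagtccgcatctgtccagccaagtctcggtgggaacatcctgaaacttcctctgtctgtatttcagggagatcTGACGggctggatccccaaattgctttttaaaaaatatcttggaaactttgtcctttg
The Nr4a1 window held the CRE core at 4 places, while 0.236% of all windows hold it at 4 or more. It held the GC box GGGCGG at 3 places, as do 8.97% of windows at 3 or more. The Nr4a2 window held the core at 1 place and no GC box. The complete CRE TGACGTCA, which contains the core, was in neither window and in 1.83% of all windows. The shares given here and for the other promoters are over windows not matched for base composition, and its part in them was not tested. The windows cover 1 annotated start per gene, and other starts were not searched.

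Among the Kruppel-like factors, Klf4 had the lowest difference. Klf4 encodes a zinc finger factor of epithelial differentiation and growth arrest. Its 2 spots had a scaled signal of 108% and 110% on the Pla2g4c siRNA array, against 279% and 279% on the control array. The repeat spots were nearly equal, and the difference was -1.36 ± 0.20, with 1.27% of named genes lower. Klf4 stayed at least 2-fold lower under normexp, quantile normalization and cyclic loess, but was at -0.81 with spike-in scaling.

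Klf6, a widely expressed Kruppel-like factor described as a growth suppressor in several tumours, had scaled signals of 75.04% and 79.9% on the Pla2g4c siRNA array, against 96.0% and 108% on the control array. Its difference was -0.40 ± 0.20, and it was 0.15 with spike-in scaling. Before scaling, the median processed signal of Klf6 was 856 with the Pla2g4c siRNA and 870 with the control siRNA. The direction for Klf6 therefore holds only relative to the other genes.

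Myc encodes a bHLH factor that drives growth and ribosome production. Its probe was printed 10 times and no spot was flagged. The scaled signals were 416% at the lowest, 439% at the median and 457% at the highest on the Pla2g4c siRNA array, against 524%, 570% and 601% on the control array. The spots did not overlap after scaling, and the difference was -0.38 ± 0.20. Before scaling the medians were 4849 and 4853, and with spike-in scaling the difference was 0.17, so the direction for Myc too is set by the scaling.

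**Figure D2:**
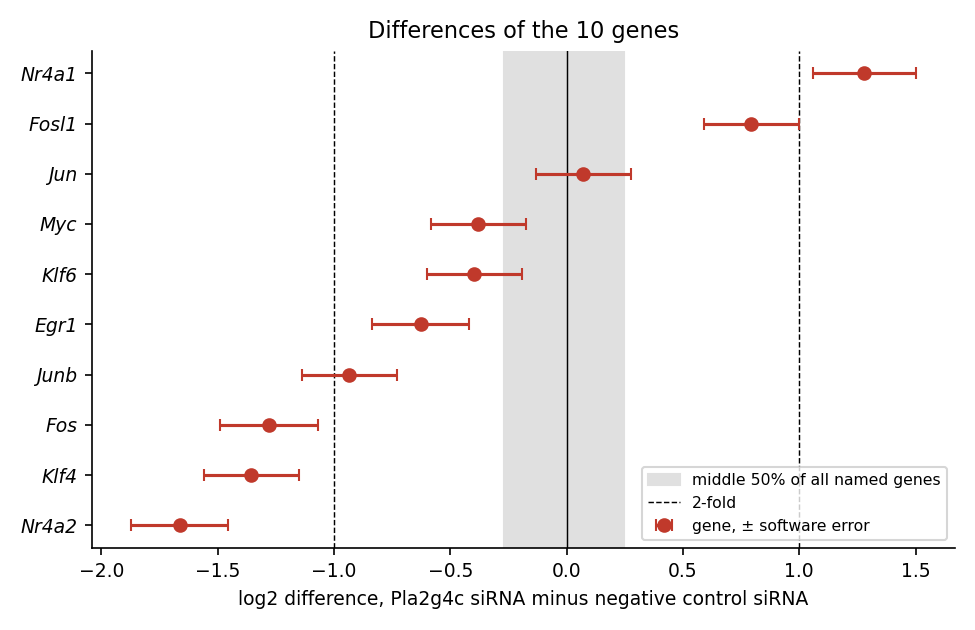
Log2 differences of the 10 genes, Pla2g4c siRNA array minus control array, with the software error as bars. The grey band is the middle 50% of all named genes, from -0.27 to 0.25, and dashed lines mark 2-fold. Nr4a1 (1.28) lies beyond 2-fold above, Fos (-1.28), Klf4 (-1.36) and Nr4a2 (-1.66) beyond 2-fold below, and Jun (0.07) lies inside the band.

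**Figure D3:**
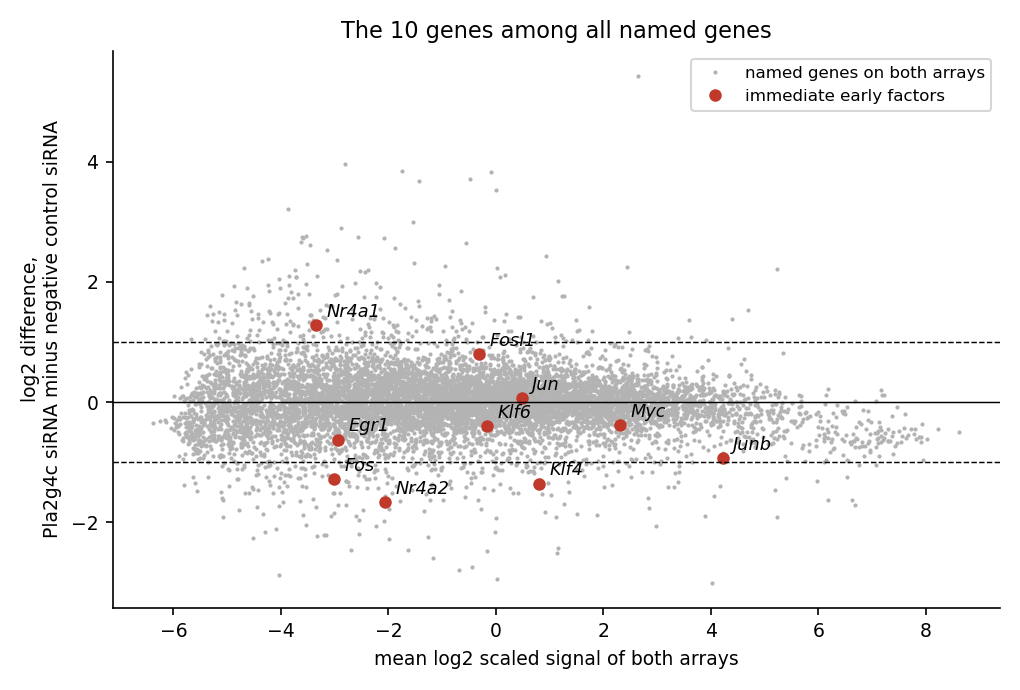
Log2 difference, Pla2g4c siRNA array minus control array, against the mean log2 scaled signal of both arrays for 9026 named genes (grey) and the 10 immediate early factors (red), with dashed lines at 2-fold. Nr4a1, Fos and Egr1 lie at low signal and Junb at high signal, where the bulk of genes lies below 0.

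The gap between the differences of 2 genes does not depend on the constant that scales each array. It was computed for pairs within a family, chosen after their values were seen. Nr4a1 lay above Nr4a2 by 2.94 ± 0.30, and by 1.86 to 2.97 under the alternative processing. Fosl1 lay above Fos by 2.07 ± 0.29, and by 1.70 to 2.08 under the alternatives. Klf6 lay above Klf4 by 0.96 ± 0.29 and by 0.89 to 0.96, and Jun lay 2.01-fold above Junb, with a log2 gap no lower than 0.78 under the alternatives. Since the pairs were chosen for their values, these gaps are a description, and whether they would be found in repeat transfections was not tested.

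**Figure D4:**
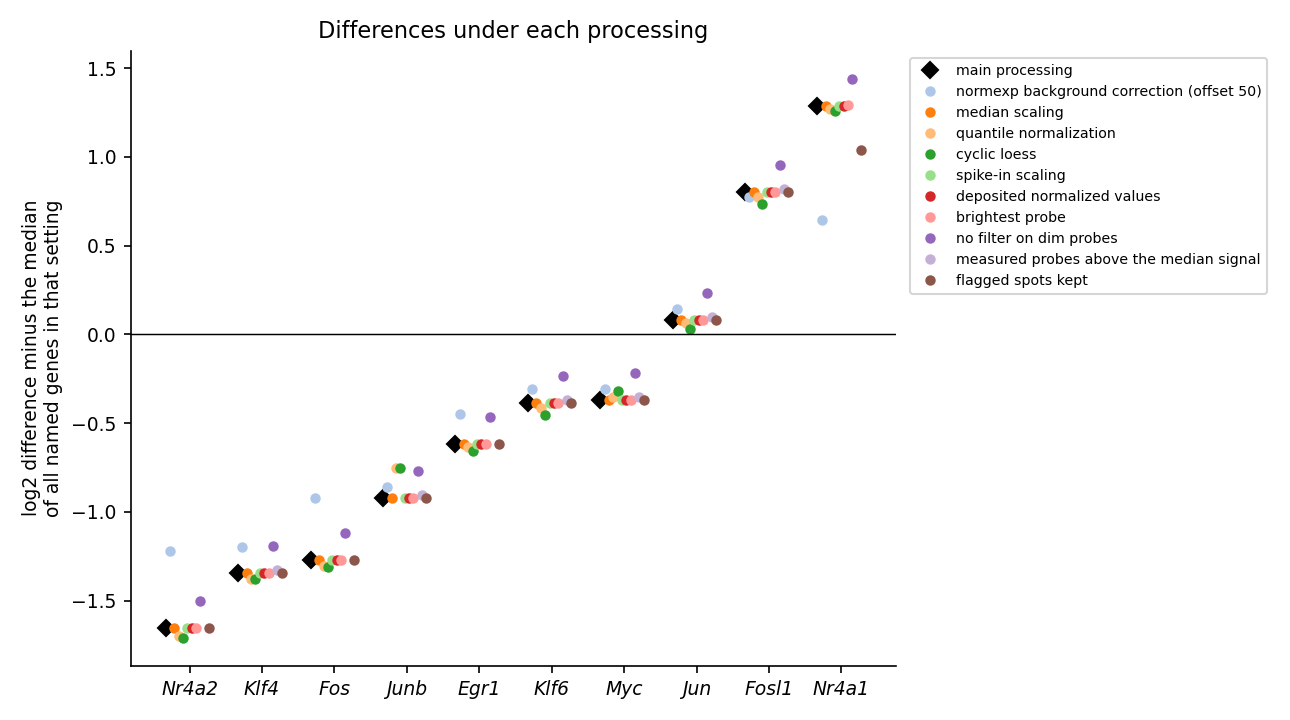
Log2 difference, Pla2g4c siRNA array minus control array, of each gene less the median of all named genes, under the main processing (black diamonds) and each alternative (coloured points). Each gene kept its side of 0 under every alternative that measured it. Values ran from 0.64 to 1.44 for Nr4a1 and from -1.71 to -1.22 for Nr4a2. Median scaling, spike-in scaling and the deposited values could not change a side, since subtracting the median cancels a constant per array. The probe and flag choices left the difference of most of these genes unchanged and shifted the median only. Normexp, quantile normalization and cyclic loess could move the genes separately, and each gene kept its side there too.

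Related genes were described through 11 lists, with 110 genes other than the 10 measured on both arrays, of 132 with a probe. Of these 110 genes, 5 reached 2-fold higher (4.55%, against 2.91% of all named genes) and 3 reached 2-fold lower (2.73%, against 3.05%), with a median difference of 0.06. Both shares were near those of all named genes. The lists were chosen with earlier results of these arrays known.

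Of the 6 measured AP-1 family genes beside Fos, Fosl1, Jun and Junb, 0 differed by 2-fold, against 5.96% of all named genes. A list this short cannot tell 0 from that share. Their median difference was 0.23, and the values of Fosl2 (0.10 ± 0.22), Jund (0.11 ± 0.20) and Jdp2 (0.21 ± 0.23) were within the software error. Atf3 (0.78 ± 0.20, or 1.72-fold), Mafg (0.40 ± 0.20) and Mafk (0.25 ± 0.21) were higher by more than that error. The value of Atf3 was close to that of Fosl1. The median of all 10 measured AP-1 genes was 0.16, and 0.050 under normexp. Fosl1 was the highest and Fos the lowest of the 10 measured AP-1 genes. The small Maf factor Maff and the AP-1 protein Batf3 passed the background flag with the Pla2g4c siRNA but not with the control siRNA. Their bounds were 2.86-fold and 2.01-fold higher. These bounds set the Pla2g4c siRNA array's value against the lowest value well above background on the control array. They carry no software error, so 2-fold is not secured for Batf3. Such genes were named through the array where they were higher.

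Egr1 was the only Egr gene measured on both arrays, and Egr2 and Egr4 reached the background flag on neither array. The corepressors that bind Egr proteins were at -0.50 ± 0.24 for Nab1 and -0.08 ± 0.21 for Nab2, and the value of Nab2 was within the software error. Among 11 measured Kruppel-like factors, 5 were above 0 and 6 below, with a median of -0.26. Klf4 was the lowest and the only one beyond 2-fold, against 5.96% of all named genes. Klf11, a TGF-beta-inducible repressor, was the highest at 0.37 ± 0.21.

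In the Myc, Max and Mxd network 0 of 8 measured genes reached 2-fold, against 5.96% of all named genes. Of the 8 genes, 1 was above 0, against 49.0% of all named genes, and the median was -0.38. Mxd3, a Max partner that represses E-box genes, was lowest at -0.80 ± 0.21, and Mlx, a Max-like protein, highest at 0.29 ± 0.20. Of 17 measured Myc target genes 0 reached 2-fold, against the same 5.96%. Of the 17 genes, 4 were above 0, against the same 49.0% of all named genes, with a median of -0.29. Lists of 8 and 17 genes are too short to tell 0 from 5.96%. Npm1, nucleophosmin, was lowest at -0.82 ± 0.20 and Cdc25a, a cell cycle phosphatase, highest at 0.72 ± 0.20. With spike-in scaling the medians of the network and of the targets were 0.17 and 0.25, so these directions too are relative to the other genes. Several of the targets are among the brightest genes, and the targets' median was -0.13 with quantile normalization and -0.098 with cyclic loess. The network's median was -0.27 with cyclic loess and -0.10 among probes above the median signal.

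Of the transcription factors and coactivators listed upstream of the immediate early genes 12 were measured. Their median difference was -0.02, with 6 above 0 and 6 below. Beyond 2-fold there were 0, against 5.96% of all named genes. Mef2a, a MADS-box factor, was lowest at -0.84 ± 0.24 and Atf2, a CRE-binding protein, highest at 0.26 ± 0.22. The MAP kinases and their kinases had a median of 0.08 over 21 genes. Of these, 0 were beyond 2-fold higher, against 2.91% of all named genes, and 2 beyond 2-fold lower, against 3.05%. The 2 lower genes were the p38 kinase Mapk11 at -1.51 ± 0.23, on 1 spot, and the ribosomal S6 kinase Rps6ka2 at -1.22 ± 0.25.

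The feedback inhibitors of MAP kinases, many of them themselves induced by those kinases, had a median of 0.34 over 11 measured genes. Of these 7 were above 0, against 49.0% of all named genes. Dusp8, a phosphatase of stress-activated kinases, was 2.28-fold higher at 1.19 ± 0.21. Spry4, an inhibitor of receptor tyrosine kinase signalling, was lowest at -0.84 ± 0.21, on 1 spot. The phosphatases Dusp1 and Dusp4 passed the background flag with the Pla2g4c siRNA only. Their bounds were 0.32 and 0.28 in log2 (1.24-fold and 1.21-fold higher) and carry no software error. Csf1r, measured at a similarly low signal, had a software error of 0.41, so neither bound secures a difference.

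Of the other immediate early and mRNA decay genes, 8 of 14 were above 0, against 49.0% of all named genes, and 6 below. Their median was 0.12, but it was -0.13 among probes above the median signal. The matricellular protein gene Ccn1 (1.21 ± 0.23, on 1 spot) and the stress kinase gene Plk3 (1.07 ± 0.21) were at least 2-fold higher. They are 2 of 14, against 2.91% of all named genes. Of the 14 genes, 0 were at least 2-fold lower, against 3.05%, and Ier5 was the lowest at -0.94 ± 0.20. Arc, an immediate early gene best known from neurons, passed the background flag with the Pla2g4c siRNA only. Its bound was 2.47-fold higher and carries no software error.

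The AP-1 target genes had the highest list median, 0.66 over 11 measured genes, with 9 above 0, against 49.0% of all named genes. The matrix metalloproteinases Mmp9 and Mmp13 differed by 3.83 ± 0.20 and 3.72 ± 0.21. Ivl, which encodes the cornified envelope protein involucrin, was 2.47-fold lower at -1.30 ± 0.21. Many factors besides AP-1 act on these genes, and no binding was measured here.

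**Figure D5:**
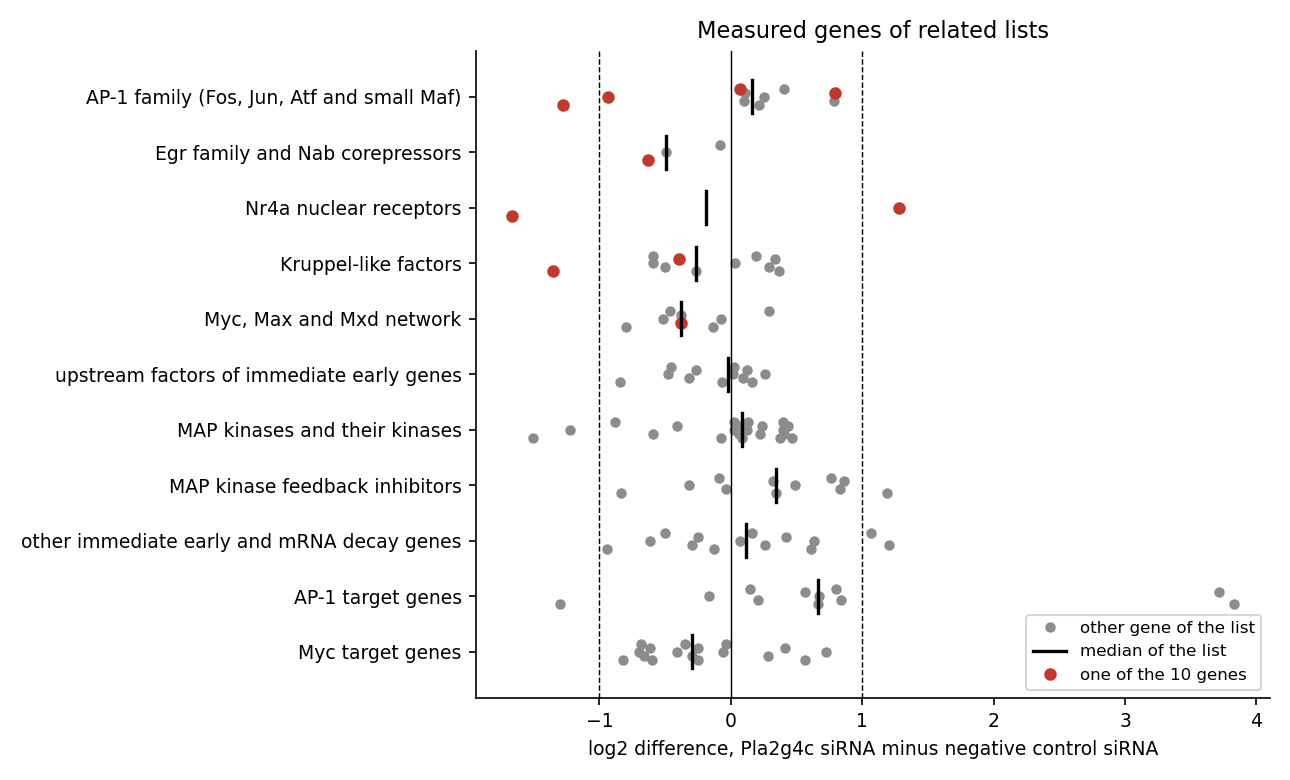
Log2 differences, Pla2g4c siRNA array minus control array, of the measured genes in 11 related lists, with the 10 immediate early factors in red, other genes in grey, list medians as black bars and dashed lines at 2-fold. List medians run from -0.50 for the Egr and Nab genes to 0.66 for AP-1 targets, with Mmp9 and Mmp13 far to the right.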

How the data were processed

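The members and gene lists were chosen with earlier results of these data known. Per the file headers, the authors' scanner intensities came from Agilent Feature Extraction 10.10.1.1 (10.10 per the submitters' processing notes), background-subtracted within each array and not normalized between arrays. Its 0 or 1 flags were used as deposited. The authors' deposited normalized intensities equal the processed signal times 1.50 (Pla2g4c siRNA) and 1.77 (control), within 0.1 units or rounding for 99.4% of spots; the sources used here do not say how these constants were set. Both arrays shared 1 slide.

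Log2 of the processed signal over the array's 75th percentile was used for all main results. Spots with outlier flags (381 with the Pla2g4c siRNA, 466 with the control siRNA) were left out at both arrays, spots were averaged per probe, and probes had to be well above background on both (16840 of 30367). A gene is the mean of its probes. RefSeq transcripts named 18006 probes (59.3%); coordinates of the array design were not used. Spots well above background were 63.1% with the Pla2g4c siRNA and 61.9% with the control siRNA, 0 were saturated, and replicate probes varied by 4.38% and 4.22% (coefficient of variation); precision is limited by having 1 array a group. Alternatives were normexp (offset 50, on median spot signals in place of mean signals, which are not among the columns used here), median, quantile, cyclic loess and spike-in scaling (7 RNAs), the deposited values, the brightest probe, no or a stricter filter on dim probes, flagged spots kept, and thresholds of 1.5-fold and 3-fold. Named genes were the 10 factors and, per list, those at least 2-fold different, or else the highest and lowest. Bounds had to reach 2-fold. Dusp1, Dusp4, Fosl2, Jund, Jdp2, Atf3, Mafg, Mafk, Nab1, Ier5, the genes below background and the cell markers named were chosen after their values were seen. No genes of similar pattern are named, since 2 arrays give no pattern. Software was limma 3.58.1 in R 4.3.3, and numpy 2.4.6, matplotlib 3.10.9 and pandas 2.3.3 in Python 3.11.15, and the steps were tested on simulated data.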

Additional observations from a re-analysis of the deposited data

How the results depend on the processing

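No paired analysis was possible because each group has 1 array; leaving out a replicate was not possible either. A value counted as moved when it changed by more than its software error, and a count when it changed by over 1.5 times. Under normexp 0 members were at least 2-fold higher, Fos was -0.99, Nr4a1 0.57 and Nr4a2 -1.29; 116 and 154 named genes and 2 and 1 related genes were at least 2-fold higher and lower. With spike-in scaling 2 members were at least 2-fold higher and 1 lower, the members' median was 0.035 and that of related genes 0.61; Fos was -0.73, Fosl1 1.34, Jun 0.62, Junb -0.39, Egr1 -0.080, Nr4a1 1.83, Nr4a2 -1.12, Klf4 -0.81, Klf6 0.15 and Myc 0.17, with 1169 and 68 named genes and 20 and 0 related genes at 2-fold. Without the filter on dim probes 539 and 765 of 15159 named genes, in place of 9026, and 13 related genes (higher) reached 2-fold. Among probes above the median signal, which measured 6 members, 0 members were at least 2-fold higher and 1 lower. There 79 and 119 of 4950 named genes and 2 and 0 related genes were at least 2-fold higher and lower. With flagged spots kept Nr4a1 was 1.03. At 1.5-fold 2 members were higher and 5 lower, with 784 and 929 named genes and 16 and 18 related genes; at 3-fold these were 0 and 1, 85 and 65, and 2 and 0. Apart from the construction of each alternative, the cause was not tested. No called member changed sign under any alternative.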
